A study of Mus musculus with 27 samples.

Results

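IRF2BP2 is a corepressor with a zinc finger and a RING finger that was found in mouse erythroleukaemia (MEL) cells as a partner of ETO2, the corepressor encoded by *Cbfa2t3*. The sites described here are the stretches of the genome where IRF2BP2 was called by chromatin immunoprecipitation and sequencing (ChIP-seq) without ETO2, and whose centre lay more than 10 kb from the centre of every site that ETO2 occupied on the same chromosome. They were chosen on the presence and absence of the calls and on the distance between centres, so both of these are descriptions. In all, 6725 sites met the rule, which is 77.0% of the 8739 IRF2BP2-only sites and 50.8% of the 13229 sites in the combined ETO2 and IRF2BP2 list. They are called far sites below. The other 2014 IRF2BP2-only sites, within 10 kb of an ETO2 site, are called close sites, the 2730 sites of both proteins shared sites, and the remaining 1760 were ETO2-only.

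IRF2BP2 does not read DNA by a known sequence of its own, and reaches the genome through factors that do. In erythroid cells its best described route is ETO2, which sits in the LDB1 complex together with GATA1, TAL1 and E proteins such as TCF3 on paired GATA and E-box motifs, and holds late red cell genes at a low level before the cells mature. IRF2BP2 was first found as a partner of the interferon regulatory factor IRF2, and has been described with other factors in other cell types.

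The study mapped these proteins in MEL cells, an immortal line from mouse erythroleukaemia that stands for an erythroid progenitor, and knocked them down. A custom antibody to IRF2BP2 gave the IRF2BP2 ChIP library, and normal rat IgG from the same kind of cells gave the IRF2BP2 IgG Control, with 1 library each, so that no site has a replicate. Of the RNA experiments, 3 were used here. The *Irf2bp2* experiment set Irf2bp2 WT against Irf2bp2 KD-sh1, a single short hairpin RNA delivered by lentivirus, and the ETO2 experiment set Eto2 WT against Eto2 KD-sh2 and Eto2 KD-sh3, with non-targeting hairpins in the controls. The differentiation experiment set MEL non-induced against MEL induced cells. Each of these 7 groups had 2 libraries of the same bulk MEL line. By the study's methods the replicates were biological and independent, while the labels name no separate cultures, and the p-values measure the spread between these libraries. In bulk RNA, fewer cells of a type and less RNA per cell cannot be told apart. Assigned reads per library were 44519414 to 52919258 in the *Irf2bp2* experiment, 48974735 to 57684583 in the ETO2 experiment and 12187737 to 19623105 in the differentiation experiment. The summed level of 6 erythroid markers was 545 to 1143 RPKM (reads scaled for gene length and library size) over all libraries and moved with each comparison, as given beside those results. That of 3 megakaryocyte markers was 364 to 971 RPKM, nearly all of it *Pf4* (362 to 966), while *Gp9* was at most 5.85 and *Gp1bb* at most 0.788. That of 4 myeloid markers was at most 0.222 and that of 3 lymphoid markers at most 0.781.

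The DNA under the sites is shown first, because the sequences differ from those of ETO2 sites. All stretches are from the plus strand of the NCBIM37 assembly, the same as mm9, and capitals mark the motif that each stands for, while other matches are left in lower case. The first set holds the strongest far site for each of 7 of the motifs described below and, besides, the strong CAGCTG site at *Tcfap4*, where fold is the number of ChIP reads plus 1 over the number of control reads plus 1. The strongest of all, chr16:94919711-94920547, had 187 ChIP reads and no control read, a fold of 188, in an intergenic stretch 128583 bp downstream of the transcription start site (TSS) of *Dyrk1a*, a protein kinase gene, and chr16:94920115-94920265 of it is printed. The others are chr16:4559731-4559811, 65 bp upstream of the TSS of *Tcfap4*, which encodes AP-4, itself an E-box binding factor; chr11:100801096-100801176, 235 bp upstream of the TSS of *Stat3*, a cytokine-activated transcription factor; chr8:86716049-86716129, upstream of *Nanos3*; chr16:90279441-90279521, in an intron of *Scaf4*; chr17:23004132-23004212, 128 bp upstream of the TSS of *Zfp945*; chr11:69232317-69232397, 5247 bp upstream of *Kdm6b*, a histone demethylase gene; and chrX:20148278-20148358, an intergenic GATA site whose nearest gene is *Rgn*.
*Dyrk1a* distal, CAGCTG E-boxes: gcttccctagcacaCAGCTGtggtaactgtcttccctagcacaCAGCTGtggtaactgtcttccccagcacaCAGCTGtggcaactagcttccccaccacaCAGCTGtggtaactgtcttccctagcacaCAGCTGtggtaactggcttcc
*Tcfap4* promoter, CAGCTG E-box: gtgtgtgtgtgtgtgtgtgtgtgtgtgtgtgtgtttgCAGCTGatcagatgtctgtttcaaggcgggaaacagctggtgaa
*Stat3* promoter, CREB/ATF element: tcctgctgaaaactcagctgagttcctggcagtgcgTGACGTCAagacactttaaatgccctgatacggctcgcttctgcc
*Nanos3* upstream, AP-1: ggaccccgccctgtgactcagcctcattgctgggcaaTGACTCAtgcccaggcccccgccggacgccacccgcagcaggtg
*Scaf4* intron, NF-E2/MAF element: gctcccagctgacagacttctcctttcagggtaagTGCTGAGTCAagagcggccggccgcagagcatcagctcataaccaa
*Zfp945* promoter, ETS: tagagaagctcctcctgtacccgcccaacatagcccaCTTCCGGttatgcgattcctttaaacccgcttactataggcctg
*Kdm6b* upstream, NRF1: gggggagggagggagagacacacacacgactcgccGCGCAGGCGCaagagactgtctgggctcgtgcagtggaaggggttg
*Rgn* distal, GATA: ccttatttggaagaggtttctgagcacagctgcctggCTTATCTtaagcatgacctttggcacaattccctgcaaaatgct

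The second set comes from sites at genes whose RNA changed when IRF2BP2 was depleted and that are described with their values below. These are chr8:77613613-77613693, upstream of *Hmox1*, chr14:56881186-56881266, upstream of *Gzmb*, chr3:106588187-106588267, in an intron of *Cd53*, chr5:140269477-140269557, in an intron of *Mafk*, and chr19:4859162-4859242, in an intron of *Ctsf*.
*Hmox1* upstream, NF-E2/MAF element: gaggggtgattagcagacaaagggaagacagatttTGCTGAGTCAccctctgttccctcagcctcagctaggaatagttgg
*Gzmb* upstream, AP-1: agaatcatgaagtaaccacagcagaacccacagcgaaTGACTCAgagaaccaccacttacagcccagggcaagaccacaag
*Cd53* intron, AP-1: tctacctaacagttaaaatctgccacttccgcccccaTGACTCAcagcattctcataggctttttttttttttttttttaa
*Mafk* intron, AP-1: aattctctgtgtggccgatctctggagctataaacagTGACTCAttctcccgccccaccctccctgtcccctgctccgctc
*Ctsf* intron, E-box/GATA composite: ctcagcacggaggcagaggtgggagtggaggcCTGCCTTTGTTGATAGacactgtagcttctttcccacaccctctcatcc

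The strongest site is built of a short tandem repeat. The 837 bp called there hold 25 copies of CAGCTG, of which 7 lie within 100 bp of the centre, and the printed stretch shows how they recur at a regular step. That site stands at the edge of the distribution. Of the 6725 far sites, 4693 had no CAGCTG within 100 bp of the centre, 1661 had 1 copy, 307 had 2, 46 had 3, 8 had 4 and 10 had 5 or more.

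Most far sites were modest peaks. The median far site had 34 ChIP reads (13 to 491), 5 control reads (0 to 70), a fold of 6.47 (2 to 188) and a width of 892 bp (242 to 3597). These values went into the authors' calls and are given as a description. The list does not name the library behind the reads, and on IRF2BP2-only sites they were read as those of the IRF2BP2 ChIP and its IgG control. The median fold was near that of close sites, at 6.34, and that of shared sites was 10.2, where the reads may be those of the ETO2 library, so that the values cannot be set against each other. The reads were not scaled for the size of the 2 libraries, and at 425 far sites (6.32%) the control had no read, so a fold there is set by the ChIP reads alone. The nearest ETO2 site lay a median of 79918 bp away, and 2940 far sites had none within 100 kb. On the near side of the limit, the far sites that only just met the rule lay 10012, 10016 and 10016 bp from an ETO2 site, near *Wipf1*, *Hsp90ab1* and *Emp1*, with folds of 8.67, 6.14 and 6.75. The IRF2BP2-only sites that just missed it lay at 9962, 9959 and 9957 bp, near *Eef2k*, *Mdc1* and *Atp2b4*, with folds of 7, 7.33 and 10.6, so sites to either side of the limit had like folds. Another IRF2BP2 site lay within 1 kb of 994 far sites (14.8%), and such neighbours are not independent of each other.

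Far sites gathered at gene starts. Their centres lay a median of 7116 bp from the nearest protein-coding TSS, against 13634.5 bp for close sites, 20609 bp for shared sites and 22357.5 bp for ETO2-only sites. Within 5 kb of a TSS were 3066 far sites (45.6%, Wilson 95% interval 44.4 to 46.8), against 673 close sites (33.4%, 31.4 to 35.5), 534 shared sites (19.6%) and 304 ETO2-only sites (17.3%). The odds were 1.67 times those of close sites (two-sided Fisher's exact test, adjusted p = 2.24e-22 over 15 position tests) and 3.45 times those of shared sites (adjusted p = 9.62e-131). Within 1 kb the gap was wider, with 2001 far sites (29.8%) against 15.7% of close, 5.60% of shared and 3.75% of ETO2-only sites. The odds ratio to close sites was then 2.27 (Fisher's exact test, adjusted p = 3.67e-38). At the TSS itself, 673 far sites (10.0%) had their centre within 100 bp, against 5.11%, 0.989% and 0.625%. At the other end, 1070 far sites (15.9%) lay beyond 50 kb of any TSS, against 19.8% of close and 25.6% of shared sites. All these intervals and tests cover the counting of sites in 1 ChIP library and not the spread between libraries.

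**Figure D1:**
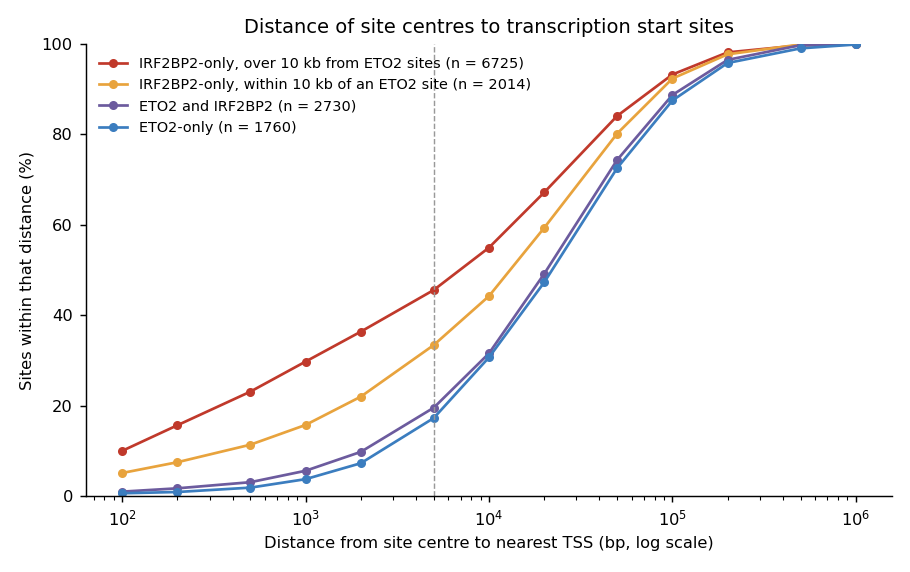
Cumulative share of sites (%) by the distance from the site centre to the nearest protein-coding TSS (bp, log scale) for far, close, shared and ETO2-only sites, with a dashed line at 5 kb. At 5 kb the far sites reach 45.6%, the close sites 33.4%, the shared sites 19.6% and the ETO2-only sites 17.3%.

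CpG-rich DNA was more common at far sites than at the other classes. Such sequence, taken as at least 50% G and C and an observed to expected CpG ratio of at least 0.6 over 501 bp, was at the centre of 1556 far sites (23.1%), against 10.7% of close, 1.10% of shared and 0.511% of ETO2-only sites. The odds ratio was 2.51 to close sites (Fisher's exact test, adjusted p = 2.81e-37) and 27.1 to shared sites. The median GC content was 51.7% over the central 201 bp and 46.0% in stretches 2 kb away. Of the centres, 830 (12.3%) lay in exons, 2551 (37.9%) in introns and 3344 (49.7%) between genes, while close sites had 8.49% in exons and 44.9% in introns. Far sites within 5 kb of a TSS lay upstream of it in 1667 cases (54.4%). Per megabase of chromosome, far sites were densest on chromosome 19 (5.53), chromosome 11 (5.18) and chromosome 17 (4.94), and sparsest on the X chromosome (0.708). Per 100 protein-coding genes the order was different. The rates were 46.8 on chromosome 19, 43.7 on chromosome 3, 43.2 on chromosome 17, 40.4 on chromosome 15, 38.2 on chromosome 11 and 12.7 on the X chromosome.

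The motifs at the centres were then counted, since they name the families of factors whose binding sites the DNA holds. Matches of 25 motifs were counted on both strands within 100 bp of the centre (201 bp), in windows of the same length 2 kb to each side, and in 201 bp around the TSS of each of 22380 protein-coding genes. A match is a string of letters and not a bound site. Motifs can overlap, since every NF-E2/MAF match holds an AP-1 match, every AGATAAG match is also counted among the short GATA matches and in many cases within the E-box/GATA composite.

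**Figure D2:**
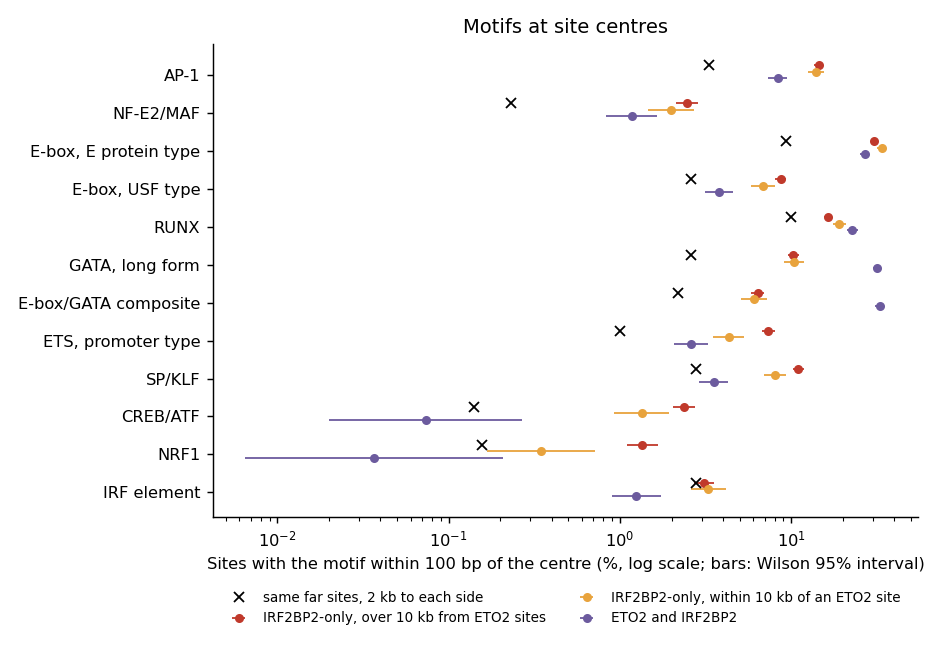
Share of far, close and shared sites (%, log scale) with each of 12 motifs within 100 bp of the centre. Points are shares, bars Wilson 95% intervals, and crosses the share in windows 2 kb to each side of the same far sites. AP-1 and CAGCTG stand well right of their crosses at far sites, GATA and the composite are furthest right at shared sites, and the IRF element lies on its cross.

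The CAGCTG E-box and AP-1 were both common at far sites and above their flanks. The CAGCTG E-box, bound by E proteins and by AP-4, was in 2032 far sites (30.2%, 29.1 to 31.3), against 9.35% of flanking windows and 12.4% of promoters. It was in 33.8% of close, 26.8% of shared and 14.8% of ETO2-only sites. AP-1 (TGAGTCA or TGACTCA), the site of FOS and JUN dimers, was in 972 far sites (14.5%, 13.6 to 15.3), against 3.33% of flanks and 2.66% of promoters, a ratio to flanks of 4.34. Its longer NF-E2/MAF form, bound by NF-E2, BACH1 and small MAF proteins, was in 166 (2.47%) and 10.7 times as frequent as in flanks. AP-1 was less common at shared sites, with 8.32%, and at ETO2-only sites, with 4.03%, which is near the 3.32% of their flanks. Close sites held AP-1 in 14.0% and did not pass the test against far sites (odds ratio 1.04, Fisher's exact test, adjusted p = 0.734 over 25 motifs). Past 5 kb from a TSS, AP-1 was in 19.7% of far and 15.8% of close sites (adjusted p = 0.0457), and within 5 kb in 8.22% and 10.3% (adjusted p = 0.236).

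GATA motifs, which lead at ETO2 sites, were a minority at far sites. AGATAAG was in 693 far sites (10.3%), 3.97 times its share in flanks, and the E-box/GATA composite of the LDB1 complex, a CTG and a GATA motif 6 to 8 bp apart, in 428 (6.36%). At shared sites these shares were 31.5% and 32.8%, and at ETO2-only sites 29.3% and 33.9%. In close sites AGATAAG was in 10.4% and the composite in 6.06%, so these IRF2BP2-only sites had shares near those of far sites although an ETO2 site lay within 10 kb (Fisher's exact test, adjusted p = 0.934 and 0.751). Short GATA matches (AGATAA or AGATAG or TGATAA or TGATAG), which also occur in 29.7% of flanks, were in 43.6% of far sites and 90.4% of shared sites. The interferon regulatory element GAAANNGAAA, the kind of motif that IRF2 binds, was in 3.09% of far sites (2.71 to 3.53) and 2.78% of their flanks. Far sites therefore held it at the rate of the DNA around them.

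Another set of motifs marked the promoters. The ETS motif CCGGAAG was in 494 far sites (7.35%, 6.75 to 7.99), 7.37 times as frequent as in flanks, and the CREB/ATF element TGACGTCA in 159 (2.36%, 2.03 to 2.76), 16.7 times as frequent. CACGTG, the E-box of USF and other bHLH-ZIP factors, was in 583 (8.67%), the SP/KLF motif CCCGCCC in 741 (11.0%) and the NRF1 motif GCGCANGCGC in 91 (1.35%). These 5 were each more common in far than in close sites, with odds ratios of 1.76 for ETS, 1.78 for CREB/ATF, 1.30 for CACGTG, 1.43 for SP/KLF and 3.93 for NRF1 (Fisher's exact test, adjusted p = 1.74e-05, 0.0167, 0.0229, 0.000594 and 0.000594). The CAGCTG E-box, RUNX (TGTGGTT or TGTGGCT), short GATA matches and AGGAAG were less common in far than in close sites, which makes 9 of 25 motifs past an adjusted p of 0.05. None of these 4 passed among sites beyond 5 kb of a TSS, where short GATA matches were in 53.9% of far and 53.5% of close sites (odds ratio 1.02, adjusted p = 0.805). Only ETS also passed among sites within 5 kb of a TSS, with 12.5% of far and 8.32% of close sites (adjusted p = 0.0466), and only AP-1 among sites beyond 5 kb.

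**Figure D3:**
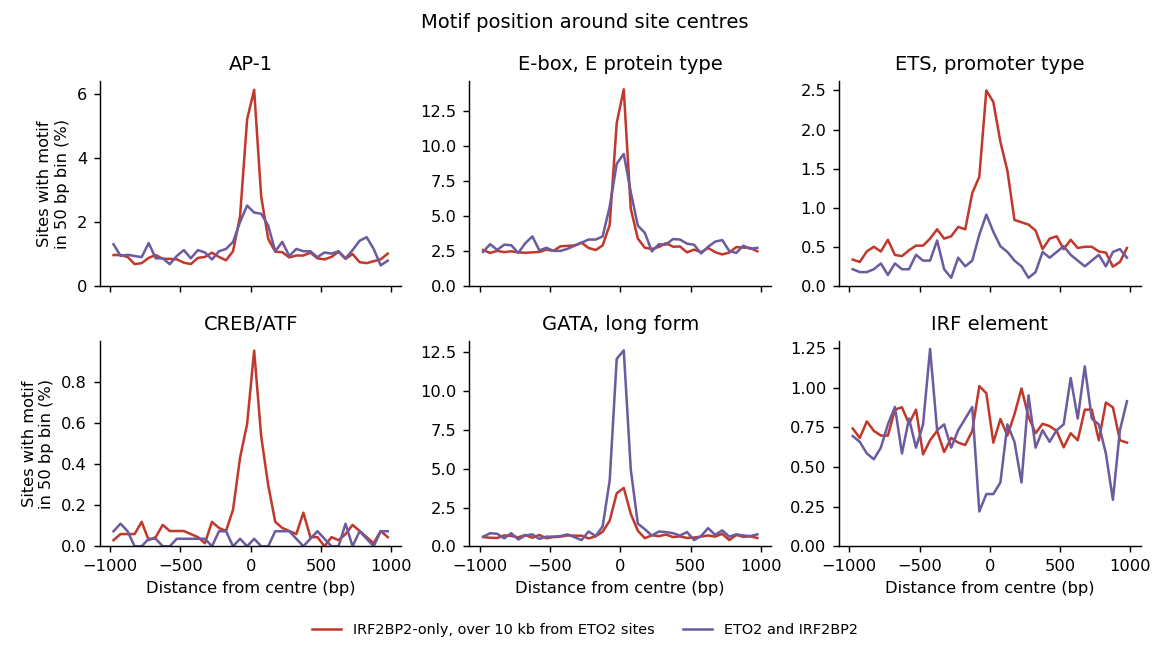
Share of far and shared sites (%) with a match in each 50 bp bin, by distance from the centre (bp), for AP-1, CAGCTG, ETS, CREB/ATF, GATA and IRF motifs. In the 2 central bins of far sites AP-1 reached 5.68% and CAGCTG 12.8%, while the IRF element stayed at 0.810%, near its level far from the centre.

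Most of the other motifs were above their flanks as well. RUNX was in 16.3% of far sites and 9.97% of flanks, PU.1 (GAGGAAGT), the site of a myeloid ETS factor, in 4.88% and 1.06%, EGR (GTGGGCG) in 3.81% and 0.981%, the CACC box of KLF1 (CCACACCC) in 3.76% and 1.84%, and the CTCF motif in 3.08% and 1.47%. With a tighter CTCF pattern, added after the data were seen, the shares were 1.83% and 0.104%, a ratio of 17.6. STAT5 (TTCCNGGAA), the factor downstream of the erythropoietin receptor, was in 1.98% and 0.669%, YY1 (AAGATGGC) in 1.98% and 1.58%, and NF-Y (CCAATCA or CCAATCG or CCAATGA or CCAATGG) in 7.81% and 6.05%. The rarest were C/EBP (TTGCGCAA), in 0.193% and 0.0223%, NF-kB (GGGANTTTCC), in 0.416% and 0.231%, the heat shock element of HSF1, in 0.446% and 0.305%, and the CArG box of SRF, in 0.922% and 1.06%. With the 25 patterns first counted, none of these other than RUNX passed the test between far and close sites, and the tighter CTCF pattern had an odds ratio of 1.69 (unadjusted Fisher's exact p = 0.0221).

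The matches lay at the centres of the peaks. In the 2 central bins of 50 bp, AP-1 was 6.44 times as frequent at far sites as in bins beyond 500 bp, CAGCTG 5.08 times, ETS 5.43 times, AGATAAG 5.80 times and CREB/ATF 13.5 times. The IRF element had a ratio of 1.06. At shared sites the same ratio was 17.5 for AGATAAG and 2.34 for AP-1.

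Promoter sites and distal sites held different motifs. Of the 1167 far sites within 250 bp of a TSS, 24.5% (22.1 to 27.1) had ETS, against 9.39% of all promoters, 6.51% (5.23 to 8.08) had CREB/ATF, against 1.93%, and 13.4% had CACGTG, against 5.57%. SP/KLF, NRF1 and NF-Y motifs, also typical of promoters, were at the level of all promoters, with 25.6% against 27.7%, 4.97% against 5.11% and 13.5% against 14.1%. The promoter set includes silent genes, and its windows are centred on the TSS rather than on a peak. From the nearest to the farthest of 5 distance bands, AP-1 went from 4.54% within 250 bp through 6.71%, 13.4% and 19.4% to 20.3% beyond 50 kb, and ETS from 24.5% through 6.83%, 3.85% and 3.32% to 2.24%. AGATAAG rose along the same bands from 2.06% to 15.05%, RUNX from 7.54% to 22.2% and CAGCTG from 19.6% to 34.1%, while CREB/ATF fell from 6.51% to 1.68%. CpG-rich and other far sites split the same way, with AP-1 in 4.76% and 17.4% and ETS in 21.0% and 3.23%.

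Motif content also varied with the strength of the site. Far sites were put in 4 groups of near-equal size by fold, and from the lowest to the highest AP-1 was in 11.3%, 11.6%, 15.9% and 19.0%, the NF-E2/MAF form in 1.32%, 1.54%, 2.86% and 4.16%, and CAGCTG in 23.4%, 29.1%, 31.0% and 37.5%. ETS went the other way, with 8.11%, 8.37%, 7.08% and 5.83%, as did the share within 5 kb of a TSS, with 51.4%, 49.4%, 42.9% and 38.6%. The median number of control reads fell along these groups from 9 through 5 and 3 to 1, since the fold is computed from it. Its part in the motif shares was not tested. In the bands at 10 to 20, 20 to 50, 50 to 100 and over 100 kb from an ETO2 site, AP-1 was in 16.7%, 13.3%, 15.8% and 13.8% and AGATAAG in 9.69%, 10.7%, 10.4% and 10.2%, with no order. NF-Y was in 5.67%, 7.66%, 8.09% and 8.37%, CREB/ATF in 2.01%, 1.96%, 2.35% and 2.69% and NRF1 in 1.06%, 1.01%, 1.03% and 1.77%. The share near a TSS went from 40.8% through 43.0% and 44.9% to 48.7%.

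Among the 10 sites with the highest fold, 3 lay within 1 kb of a TSS. Beside *Dyrk1a*, the promoter of *Stat3* had 209 ChIP reads against 1 control read (fold 105) at chr11:100799976-100801363, and that of *Tcfap4* 281 against 3 (70.5) at chr16:4559532-4560454. The third lay 898 bp upstream of *Adamts6*, a metalloprotease gene, with 81 reads against 0 (82) at chr13:105076794-105077362, and held a CREB/ATF element and CACGTG. A site in an intron of *Atxn1*, chr13:45718907-45719764, had 375 reads against 3 (94), and its nearest TSS was that of *Gmpr*, which encodes GMP reductase, 116582 bp away. The others were near *Nanos3* (98), *Gm13060* (76), *Rgn* (65), *Slc22a8* (63) and *Gm9869* (63). By reads alone the largest site, chr12:60140611-60143261, had 491 against 35, a fold of 13.7.

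Of these genes, *Gmpr* was called in *Irf2bp2* KD, and the others were not called or could not be tested. *Stat3* was at 101 and 101 CPM (counts scaled to the library total) in Irf2bp2 WT and 86.3 and 84.6 in Irf2bp2 KD-sh1, a log2 change of -0.24 (adjusted p = 0.0198 by edgeR's quasi-likelihood test), and *Dyrk1a* at 109 and 101 against 128 and 137, a log2 change of 0.33 (adjusted p = 0.00372). In both, the groups did not overlap, yet the changes were short of the log2 change of 0.5 that a called gene had to reach. *Gmpr* had 166 and 195 CPM against 295 and 300 (log2 change 0.72, adjusted p = 6.81e-06), and an ETO2 site was also assigned to it and to *Stat3*. *Adamts6*, near the floor at 0.323 and 0.542 CPM against 0.270 and 0.135, did not pass (adjusted p = 0.0762). *Nanos3*, *Rgn* and *Slc22a8* were too low to test, and the remaining 3 symbols were not matched in the RNA tables.

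Each far site was then assigned to the gene with the nearest TSS within 1 Mb, to ask whether genes near IRF2BP2 sites without ETO2 responded to its loss. This gave 4376 genes, 3347 of them with no ETO2-only or shared site assigned. Of the 4376, 2488 had a far site within 5 kb of the TSS. Genes with such a site were active ones, with a median of 17.3 RPKM in Irf2bp2 WT and 91.8% at 1 RPKM or more, against 3.23 RPKM and 57.1% of all genes listed. Genes with a far site within 1 kb had a median of 19.1 RPKM, and genes assigned only a more distant far site 6.60. A high level was not particular to far sites. With a close site within 5 kb and no far site there, the median was 24.01 RPKM, and 91.7% reached 1 RPKM. For a shared site within 5 kb these values were 18.5 RPKM and 84.9%, and for an ETO2-only site 14.97 RPKM and 78.1%. The differences between these kinds of site were not tested.

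The knockdown itself was small at the RNA level. *Irf2bp2* was at 116 and 120 CPM in Irf2bp2 WT and 92.2 and 94.9 in Irf2bp2 KD-sh1, a log2 change of -0.33 ± 0.08 (SE, adjusted p = 0.00266), which is short of the limit for a call. In the ETO2 experiment *Cbfa2t3* was at 400 and 427 CPM in Eto2 WT, 202 and 244 in Eto2 KD-sh2 and 123 and 145 in Eto2 KD-sh3, a log2 change of -1.21 ± 0.22 (adjusted p = 0.00954). Both hairpins lowered it in each library. Without Eto2 WT replicate 1 or 2 its adjusted p was 0.0846 or 0.0969.

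In *Irf2bp2* KD, genes near far sites were called about as often as all genes that passed the filter on low counts. Calls needed a log2 change of 0.5 in size and an adjusted p no higher than 0.05, and 22.5% of the 12329 genes tested were called, with 10.1% higher and 12.5% lower. Of 2167 tested genes with a far site within 5 kb, 469 were called (21.6%), 190 higher (8.77%) and 279 lower (12.9%), and their median log2 change was 0.01. Without the filter 477 of 2256 were called (21.1%), against 15.5% of all genes, and these shares were 5.80% and 4.54% in *Cbfa2t3* KD and 30.3% and 21.7% on induction. Of all 3409 tested genes nearest to a far site, 804 were called (23.6%), 322 higher and 482 lower. Without genes that also had an ETO2-only or shared site assigned, 559 of 2599 were called (21.5%). With a far site within 5 kb these were 378 of 1831 (20.6%). The share was 19.2% for a site within 1 kb and 27.0% for genes with only a more distant far site. Genes with other kinds of site had higher shares of calls, a difference that was not tested, with 191 of 406 (47.0%, 135 higher and 56 lower) for a shared site within 5 kb 153 of 402 (38.1%, 97 higher and 56 lower) for a close site and no far site there, and 76 of 221 (34.4%) for an ETO2-only site. With 5 or more far sites, 23 of 85 genes were called (27.1%), 16 of them lower. The summed erythroid markers moved with the knockdown, from 545 and 583 RPKM in Irf2bp2 WT to 1059 and 1081 in Irf2bp2 KD-sh1, and the megakaryocyte markers, nearly all *Pf4*, from 453 and 544 to 927 and 971. The part of these shifts in the calls was not tested.

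The ETO2 knockdown gave fewer calls. Of 12537 genes tested, 5.74% were called, with 2.99% higher and 2.75% lower. Among 2181 genes with a far site within 5 kb, 119 were called (5.46%), 28 higher (1.28%) and 91 lower (4.17%). The share of calls was thus near that of all genes past the filter, and the difference in each direction was not tested. Of all 3434 genes nearest to a far site, 238 were called (6.93%), 83 higher and 155 lower, and the share was 24.4% for a shared site (78 higher and 22 lower of 410), 22.7% for an ETO2-only site and 14.9% for a close site. The erythroid markers summed to 658 and 672 RPKM in Eto2 WT and 819 to 900 in the knockdowns, and the megakaryocyte markers to 489 and 458 and to 561 to 657. Their part was not tested. With 1 hairpin at a time, 146 of 2178 genes with a far site within 5 kb were called for Eto2 KD-sh2 (6.70%, against 7.11% of all genes tested) and 178 of 2181 for Eto2 KD-sh3 (8.16%, against 9.19%). The counts also rest on the controls. Leaving out Eto2 WT replicate 1 or 2, which leaves 1 control library, lowered the share of calls among genes with a far site within 5 kb and over all genes alike. Most of the calls that remained at genes nearest to a far site were lower.

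On induction, the cells mature towards red cells, and 27.2% of 11713 genes tested were called, with 12.4% higher and 14.8% lower. Of 2135 genes with a far site within 5 kb, 605 were called (28.3%), 229 higher (10.7%) and 376 lower (17.6%). Among genes with a shared site within 5 kb 45.2% were called, with 112 higher and 67 lower, so that the balance of directions there was the other way round, a difference that was not tested. The erythroid markers summed to 738 and 607 RPKM in MEL non-induced and 1143 and 935 in MEL induced cells, and the megakaryocyte markers to 524 and 364 and to 546 and 911. Their part was not tested. Of the 3348 genes nearest to a far site, 976 were called (29.2%), 393 higher and 583 lower. Leaving out MEL non-induced replicate 1, MEL non-induced replicate 2 or MEL induced replicate 2 leaves 1 library in that group. Each of these lowered the share of calls among genes with a far site within 5 kb and over all genes alike.

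**Figure D4:**
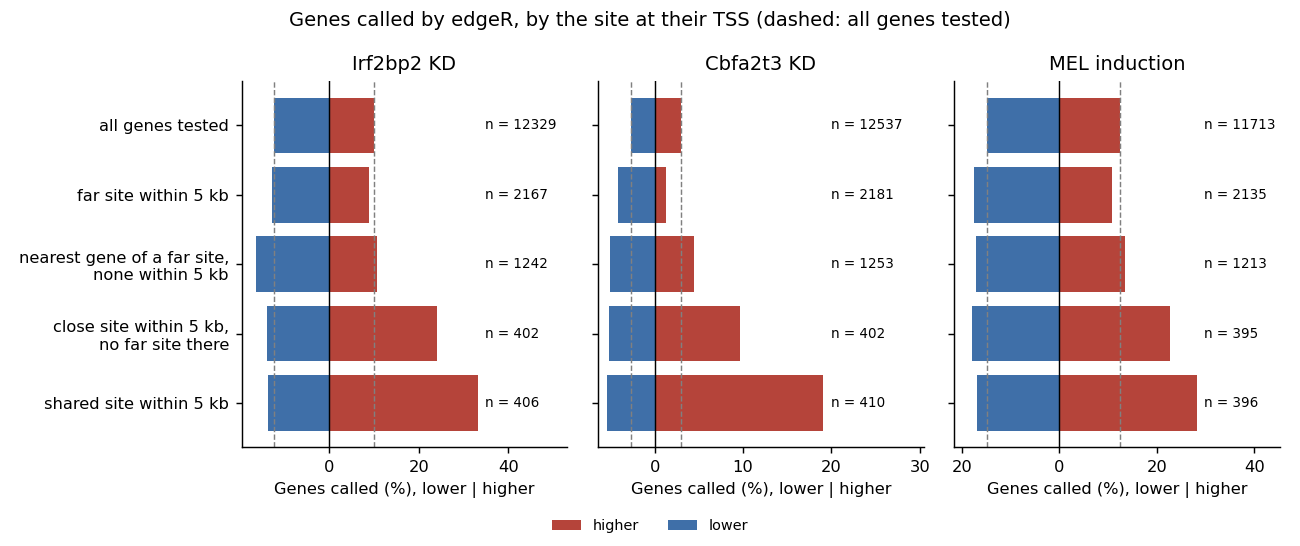
Share of tested genes called higher (right) and lower (left, both in %) by edgeR in *Irf2bp2* KD, *Cbfa2t3* KD and MEL induction, by the site at their TSS. In *Irf2bp2* KD the bars of far-site genes end near the dashed lines of all genes tested (22.5% called, 21.6% with a far site within 5 kb), in *Cbfa2t3* KD they end at 1.28% higher and 4.17% lower against 2.99% and 2.75% of all genes, and bars of shared-site genes (47.0%) reach past them, mostly on the higher side in the knockdowns.

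The genes named next are the 8 largest rises and 8 largest falls among called genes with a far site within 5 kb of the TSS, with both knockdown libraries beyond both controls. They were picked by their change, so their size is a description, and adjusted p-values are edgeR's over all genes. For these genes the response to ETO2 loss and to induction is given where it was called. An ETO2 site was also assigned to *Ptp4a3* among them and, of the list genes described after them, to *Bcl2l11*, *Mafk*, *Ier5* and *Meis1*.

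The 3 largest rises started from a low level. *Spef1*, for a microtubule-binding protein of cilia and sperm flagella, was at 2.63 and 2.15 CPM in Irf2bp2 WT and 26.3 and 31.8 in Irf2bp2 KD-sh1 (log2 change 3.61 ± 0.14, adjusted p = 7.71e-12). Its far site lay 2749 bp upstream, in an intron of the neighbouring cell cycle gene *Cdc25b*, and had 24 reads against 4. *Ctsf*, for the lysosomal protease cathepsin F, was at 0.343 and 0.582 CPM against 3.22 and 3.29 (2.81 ± 0.26, adjusted p = 2.37e-07). Its site, 4089 bp into the gene, had 47 reads against 6 and carries the composite printed above. *Gfap*, for an intermediate filament of astrocytes, was at 0.727 and 1.10 CPM against 5.14 and 5.76 (2.57 ± 0.22, adjusted p = 6.52e-08), with sites of 21 reads against 2 at the TSS and 25 against 4 within the gene. In all 3 genes every knockdown library was several times above both controls.

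*Traf4*, for an adaptor of receptor signalling, and *Ptp4a3*, for the phosphatase PRL-3, were the rises at a high level. *Traf4* went from 36.6 and 48.7 CPM to 149 and 158 (log2 change 1.84 ± 0.11, adjusted p = 9.56e-10), with a site in an intron of *Nek8* 2896 bp upstream. *Ptp4a3* went from 106 and 120 CPM to 386 and 417 (1.83 ± 0.09, adjusted p = 1.5e-10), with a site 2183 bp upstream of 24 reads against 4. Both also rose in *Cbfa2t3* KD, by log2 changes of 1.54 (adjusted p = 0.000326) and 1.15 (adjusted p = 0.000265), as did *Ctsf* (2.48, adjusted p = 0.00159), *Gfap* (1.91, adjusted p = 0.000434) and *Spef1* (1.80, adjusted p = 0.00302, or 0.0595 without Eto2 WT replicate 1). On induction *Spef1* rose by 4.54 on the log2 scale (adjusted p = 1.53e-06), *Ctsf* by 2.56 (adjusted p = 0.0072, or 0.0744 and 0.0699 without MEL non-induced replicate 1 and 2) and *Ptp4a3* by 1.33 (adjusted p = 0.00175).

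The last 3 rises were near the floor. *Gsdma*, for a pore-forming gasdermin, was at 0.323 and 0.522 CPM against 1.74 and 1.97 (log2 change 2.13, adjusted p = 1.74e-05). *C3ar1*, for the receptor of complement fragment C3a, had 12 and 4 counts against 24 and 51 (2.24, adjusted p = 0.00132, or 0.0584 without Irf2bp2 KD-sh1 replicate 2), with a site of 61 reads against 11 on the TSS. It went the other way in *Cbfa2t3* KD, with a log2 change of -1.19 (adjusted p = 0.0211, or 0.181 and 0.136 without Eto2 WT replicate 1 and 2). *Hist2h4*, a histone H4 gene with near-identical copies whose reads may be split among them, had 6 and 7 counts against 15 and 26 (1.68, adjusted p = 0.013, 0.119 by DESeq2, and 0.0646 and 0.174 without Irf2bp2 WT replicate 1 and KD-sh1 replicate 2). These 3 are the least certain of the rises.

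**Figure D5:**
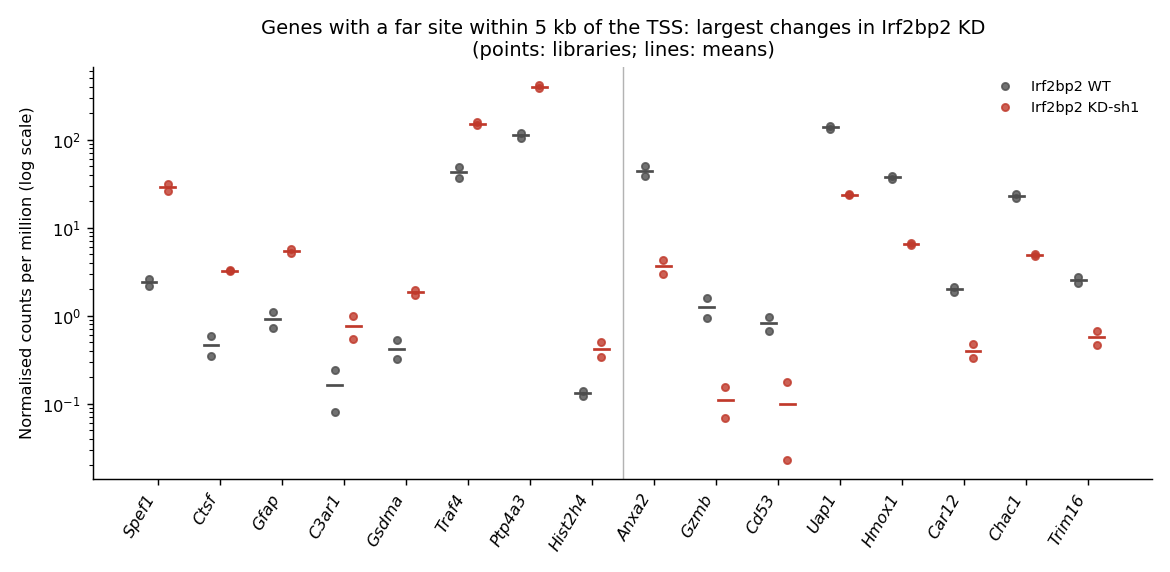
CPM (log scale) in the 2 Irf2bp2 WT and 2 Irf2bp2 KD-sh1 libraries for the 8 largest rises and 8 largest falls among called genes with a far site within 5 kb. Points are libraries and lines their means. *Ptp4a3* (106 and 120 against 386 and 417) and *Uap1* (144 and 134 against 23.3 and 24.3) are the changes at the highest level, and *Hist2h4* and *C3ar1* lie near the floor.

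Falls were as large as rises. *Anxa2*, for the membrane-binding annexin A2, went from 50.6 and 38.7 CPM to 4.26 and 3.02 (log2 change -3.63 ± 0.16, adjusted p = 2e-11). Its site, 24 bp upstream of the TSS with 27 reads against 4, holds AP-1 5 bp from its centre. It also fell by 5.80 on the log2 scale on induction (adjusted p = 5.55e-05) and by 1.66 in *Cbfa2t3* KD (adjusted p = 0.00911, or 0.0847 and 0.0862 without Eto2 WT replicate 1 and 2). *Hmox1*, for haem oxygenase 1, which breaks down haem, went from 36.3 and 39.2 CPM to 6.63 and 6.40 (-2.54 ± 0.11, adjusted p = 1.52e-11). A site 39 bp upstream of its TSS had 107 reads against 7 and holds CACGTG, and the one 3867 bp upstream had 63 against 14 and holds the NF-E2/MAF element printed above. The nearest ETO2 site lay over 2 Mb from both. *Hmox1* fell on induction as well, by 1.59 on the log2 scale (adjusted p = 0.0115, or 0.252 without MEL non-induced replicate 1).

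*Uap1*, *Chac1*, *Car12* and *Trim16* fell as well. *Uap1*, for an enzyme that makes UDP-N-acetylglucosamine, went from 144 and 134 CPM to 23.3 and 24.3 (log2 change -2.54 ± 0.09, adjusted p = 2.14e-12), and fell by 1.27 on induction (adjusted p = 0.00379). *Chac1*, for a glutathione-degrading enzyme, went from 21.9 and 24.5 CPM to 4.80 and 5.03 (-2.24 ± 0.12, adjusted p = 2.24e-10). *Car12*, for a carbonic anhydrase, went from 2.14 and 1.87 CPM to 0.473 and 0.329 (-2.33 ± 0.29, adjusted p = 5.43e-06), and fell by 3.11 on induction (adjusted p = 0.00315, or 0.0601 without MEL non-induced replicate 1). In each the site lay upstream of the TSS, at 2006 bp for *Uap1*, 232 bp for *Chac1* and 355 bp for *Car12*. *Trim16*, for a ubiquitin ligase, went from 2.73 and 2.33 CPM to 0.676 and 0.464 (-2.16 ± 0.26, adjusted p = 4.56e-06), and fell by 2.47 in *Cbfa2t3* KD (adjusted p = 0.000267). On induction it fell by 2.05 on the log2 scale (adjusted p = 0.0166, or 0.136 and 0.0826 without MEL non-induced replicate 1 and 2 and 0.051 without MEL induced replicate 2).

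A pair of leukocyte genes with AP-1 under the peak fell from a low level in the *Irf2bp2* experiment. *Gzmb*, for the cytotoxic protease granzyme B, had 79 and 47 counts in Irf2bp2 WT against 3 and 8 in Irf2bp2 KD-sh1 (log2 change -3.45 ± 0.46, adjusted p = 1.17e-05), and *Cd53*, for a tetraspanin of leukocytes, 48 and 33 against 1 and 9 (-2.95 ± 0.54, adjusted p = 0.000268). *Cd53* fell in *Cbfa2t3* KD by 3.59 on the log2 scale (adjusted p = 0.000235) and *Gzmb* by 1.99 (adjusted p = 0.00874, or 0.0866 and 0.0876 without Eto2 WT replicate 1 and 2). On induction *Gzmb* fell by 3.54 (adjusted p = 0.0353, but 0.497 by DESeq2, and 0.257 and 0.108 without MEL non-induced replicate 1 and 2) and *Cd53* by 3 (adjusted p = 0.0181, but 0.285 by DESeq2, and 0.218 and 0.0695 without those replicates). The *Gzmb* site had 37 reads against 8 and the *Cd53* site 51 against 4, and in both the AP-1 match printed above lay within 17 bp of the centre.

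Genes of 10 lists of pathways were counted next, among those with a far site within 5 kb of the TSS. Over all genes, 2488 of 22380 had such a site, and 22.5% of genes tested were called in *Irf2bp2* KD (10.1% higher and 12.5% lower). The lists' shares were not tested against these. JAK-STAT signalling, which carries the erythropoietin signal in erythroid cells, had 17 of 41 members there, and 2 of them rose and 3 fell in *Irf2bp2* KD. The rises were feedback inhibitors. *Socs3* went from 3.84 and 4.13 CPM to 10.9 and 11.1 (log2 change 1.46, adjusted p = 2.05e-07), with 3 far sites, and *Cish* from 23.8 and 29.6 to 64.9 and 67.3 (1.31, adjusted p = 2.03e-08), with 3 far sites within 5 kb, of 51 reads against 6, 48 against 9 and 50 against 10. *Socs3* also rose in *Cbfa2t3* KD, by 0.56 on the log2 scale (adjusted p = 0.0152, or 0.102 and 0.182 without Eto2 WT replicate 1 and 2). On induction *Socs3* rose by 1.68 (adjusted p = 0.0235, or 0.187 and 0.130 without MEL non-induced replicate 2 and MEL induced replicate 1) and *Cish* by 1.09 (adjusted p = 0.0334, or 0.269 and 0.332 without the same libraries). The *Cish* site 761 bp into the gene holds the STAT5 motif TTCCNGGAA and an overlapping ETS motif. Among the falls were the kinase gene *Jak2*, from 346 and 319 CPM to 197 and 210 (-0.71, adjusted p = 4.99e-06), and the phosphatase gene *Ptpn2*, from 61.5 and 57.5 to 37.4 and 45.7 (-0.52, adjusted p = 0.000342). *Ptpn2* dropped below the log2 limit, to -0.46 and -0.37, without Irf2bp2 WT replicate 1 and KD-sh1 replicate 1. At *Jak2* the 3 sites near the TSS had 16, 34 and 34 control reads against a median of 5 at far sites, and folds of 3.18, 2.83 and 2.03, and the part of that background in the calls was not tested. At *Socs3*, *Cish* and *Jak2* some of these sites shared a border with the next. Such neighbours may be parts of the same bound region.

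Of AP-1 and related bZIP factors, 10 of 24 members had a far site within 5 kb, and 2 rose and 0 fell by edgeR, with the same counts by DESeq2 and 2 with a lower level at an unadjusted p under 0.05. *Jund*, for a JUN partner in AP-1, went from 12 and 14.1 CPM to 26.3 and 30.5 (log2 change 1.12, adjusted p = 4.31e-07), and its site of 100 reads against 4 holds a CREB/ATF element. *Mafk*, for a small MAF protein that pairs with NF-E2 and BACH1, went from 38.1 and 40.5 to 72.3 and 70.6 (0.86, adjusted p = 3.24e-07), with AP-1 at the very centre of its intron site of 33 reads against 2. All 10 of these members carried a far site, and those other than *Jund* and *Mafk* were not called.

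Of immediate-early genes, which respond fast to growth signals, 11 of 27 had a far site within 5 kb, and of 10 tested 2 rose and 1 fell. *Ier5* went from 30.2 and 35.0 CPM to 64.8 and 66.7 (log2 change 1.01, adjusted p = 1.38e-07) and the small GTPase gene *Rhob* from 6.28 and 7.75 to 11.2 and 11.6 (0.70, adjusted p = 0.000354). *Dusp6*, for a phosphatase of ERK kinases, went from 5.17 and 5.32 to 3.85 and 2.17 (-0.81, adjusted p = 0.00469, or 0.104 without Irf2bp2 KD-sh1 replicate 2). On induction *Ier5* rose by 1.55 on the log2 scale (adjusted p = 0.000959) and *Dusp6* fell by 3.50 (adjusted p = 0.000224). *Dusp6* also fell in *Cbfa2t3* KD, by 0.87 on the log2 scale (adjusted p = 0.00736, or 0.0960 and 0.0793 without Eto2 WT replicate 1 and 2).

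Of the apoptosis list, 11 of 43 had a far site within 5 kb, and 1 rose and 0 fell by edgeR, with the same counts by DESeq2. At an unadjusted p under 0.05, 6 were higher and 1 lower. In edgeR with DESeq2 size factors, without the filter or with a replicate block, 2 were called higher. The rise in the main test was *Bcl2l11*, for the death-promoting protein BIM, from 22.1 and 20.7 CPM to 49.99 and 52.0 (log2 change 1.25, adjusted p = 8.29e-09). It rose in *Cbfa2t3* KD by 0.75 (adjusted p = 0.00098) and on induction by 2.96 (adjusted p = 8.86e-06), and its site on the TSS had 45 reads against 16, a fold of 2.71. Of mRNA decay factors, 15 of 38 had a far site within 5 kb, with 1 rise and 1 fall. *Cnot6l*, for a deadenylase of the CCR4-NOT complex, went from 140 and 132 CPM to 59.2 and 59.5 (-1.20, adjusted p = 4.82e-09). *Tob2*, which recruits that complex, went from 56.8 and 60.5 to 80.3 and 85.9 (0.50, adjusted p = 0.000107), at the very limit of a call, with log2 changes of 0.46 without Irf2bp2 WT replicate 1 or KD-sh1 replicate 2.

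Genes that a cell uses all the time had far sites too, without calls in *Irf2bp2* KD when all libraries were used. Of translation factors 13 of 47 had one within 5 kb, and their log2 changes there ran from -0.42 to 0.19, and of chaperones 13 of 46, from -0.44 to 0.18. None was called in that knockdown by edgeR or by DESeq2, and 5 and 6 of them were lower at an unadjusted p under 0.05. With Irf2bp2 KD-sh1 replicate 2 left out, which leaves 1 knockdown library, this no longer held for the chaperones. Over all genes tested on induction, 14.8% were called lower and 12.4% higher. On induction 9 of the 13 chaperones were called lower (4 without MEL induced replicate 2, and 6 without MEL non-induced replicate 2) and, of the 13 translation factors, 4 lower and 1 higher (0 called without either of these libraries, and 2 without either of the others). Of interferon regulatory factors and partners 4 of 16 had a far site within 5 kb, namely *Irf2*, *Irf5*, *Irf9* and *Ifnar1*, and 0 were called in *Irf2bp2* KD by either tool, with log2 changes from -0.39 to 0.21 and 1 lower at an unadjusted p under 0.05. *Irf2bp2* itself was nearest to 6 far sites, none within 5 kb, and an ETO2 site was also assigned to it.

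Red cell genes proper were counted last. Of 27 genes of haem biosynthesis and the red cell membrane, a list drawn around targets that this study named and so no independent evidence, 4 were nearest to a far site, where 4376 of 22380 genes were over all, and 18 had a shared site assigned. The share of all genes with a shared site assigned was not counted, so the 18 has no such background. *Urod* was the 1 member with a far site within 5 kb. *Urod*, for an enzyme of haem synthesis, went from 71.2 and 78.7 CPM to 154 and 154 (log2 change 1.04, adjusted p = 3.75e-08) and rose by 1.28 on induction (adjusted p = 0.00214), and its site 76 bp upstream of the TSS had 52 reads against 4 with the nearest ETO2 site 318189 bp away. Of myeloid differentiation factors 3 of 32 had a far site within 5 kb, and of 2 tested 1 fell. *Meis1*, a homeobox gene of early progenitors, went from 35.2 and 31.7 CPM to 12.4 and 11.4 (-1.49, adjusted p = 4.93e-09), with a site 23 bp upstream of its TSS that holds the ETS motif. It fell in *Cbfa2t3* KD by 1.19 on the log2 scale (adjusted p = 0.00219) and on induction by 2.09 (adjusted p = 0.0022).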

How the data were processed

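The authors aligned the ChIP-seq reads with Bowtie to mm9, called sites with MACS, CCAT and software of their own and deposited a combined list with ChIP and control read counts, the height of the pileup (signal), a fold (ratio) of the reads, each plus 1, and an adjusted p-value. Sites had at least 10 reads, a fold of at least 2 and an adjusted p of 0.01 or less. The ETO2 library came from earlier work. The RNA tables, deposited with counts and RPKM per RefSeq gene after TopHat2 alignment, also hold the authors' fold changes and p-values, which were not used. Another 2 tables were not used.

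Sites were joined to GENCODE vM1 on NCBIM37, and a TSS was the 5′ end of a protein-coding gene. Shares of sites were compared by two-sided Fisher's exact tests with Benjamini-Hochberg adjustment and Wilson 95% intervals (scipy 1.17.1). The deposited counts were tested over all genes with edgeR 4.0.16 (TMM, filterByExpr, quasi-likelihood test) in R 4.3.3, with both ETO2 hairpins as 1 group. Scripts were tested on simulated data. Alternatives were DESeq2 1.42.0 and its size factors, no filter, each library left out, a replicate block, other distance limits, windows and fold limits. Replicate numbers were not taken to pair libraries. Deviations of replicate 1 from its group mean were compared between groups. Their correlation was 0.045 in the *Irf2bp2* experiment, 0.215 to 0.393 in the ETO2 experiment and 0.219 in the differentiation experiment. Named are the 10 sites of highest fold, the strongest site per motif, the sites nearest to the limit, the 8 largest rises and falls at far sites within 5 kb, and called list members. *Irf2bp2* and *Cbfa2t3* checked the labels. The sites and the lists were chosen with earlier results of these data known. Sequences on chromosome 18 and stretches over UTRs are not printed. The values of 1 called list member are not reported here.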

Additional observations from a re-analysis of the deposited data

How the results depend on the processing

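The rule's limit sets the number of sites, which was 4300 at over 50 kb from every ETO2 site. The shares within 5 kb of a TSS, tested again against close and shared sites, kept their direction and passed under every limit, at the TSS limit of 1 kb and at or above the median fold, and the other position tests were not run again. The 9 motifs that differed between far and close sites became 5 at over 50 kb, 3 in a window of 50 bp to each side, 1 within and 1 beyond 5 kb of a TSS, and 0 at or above the median fold, where 5 had an unadjusted Fisher p under 0.05. Odds ratios of many motifs changed side, among them short GATA, which passed at 0.864 over all sites, at 1.02 (beyond 5 kb of a TSS), and AGATAAG at 1.07 (over 5 kb), 1.02 (over 20 kb), 1.03 (50 bp window) and 1.25 (beyond 5 kb of a TSS), AP-1 at 0.951 (over 20 kb) and 0.784 (within 5 kb), and the composite at 0.972 (over 50 kb). The 804 genes called in *Irf2bp2* KD became 245 at a log2 change of 1 or more and 469 with a site within 5 kb, and 756 to 852 with a library left out. The 238 of *Cbfa2t3* KD became 69, 119, 136 without genes that have an ETO2 site, and 108 to 264 with a library left out. The 976 of MEL induction became 605 with a site within 5 kb and 497 to 1042 with a library left out. The log2 change of *Cbfa2t3* in *Irf2bp2* KD, never past the threshold, ran from -0.14 without Irf2bp2 KD-sh1 replicate 1 to 0.018 without replicate 2. With a replicate block, 811 genes of far sites were called in *Irf2bp2* KD, and within 5 kb 472 there, 107 in *Cbfa2t3* KD and 757 on induction. The shares within 5 kb were then 21.8%, 4.91% and 35.5%, against 23.0%, 5.04% and 33.4% of all genes tested. The cause of these shifts was not tested beyond the smaller sets that the stricter limits leave. Of the values for named genes under all alternatives, 575 kept direction and side of the threshold, 43 lost the call, 1 gained it and 1 changed direction. With 1 ChIP library, the spread between ChIP experiments is unknown, and sites close to 10 reads may be missed or gained.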

Other observations

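Some genes gathered many far sites. *Azin1*, *Bcor*, *Sept9* and *Tex14* were each nearest to 11, over 61.4 kb at *Azin1*, 560 kb at *Bcor*, 90.7 kb at *Sept9* and 50.4 kb at *Tex14*. *Cited2*, *Tgif1*, *Cnnm2* and *Olfr1324* had 10 each, *Jak2*, *Klf10*, *Scd2* and *Ywhaz* 9, and *Fgd2* 8. Of these, *Sept9*, for a septin of the cytoskeleton, fell in *Irf2bp2* KD (log2 change -0.82, adjusted p = 4.74e-07 by edgeR), as did *Cited2*, for a partner of the coactivator CBP (-1.08, adjusted p = 1.66e-07), the homeobox gene *Tgif1* (-0.53, adjusted p = 0.000445) and *Jak2* (-0.71, adjusted p = 4.99e-06), while *Fgd2* rose (1.43, adjusted p = 0.000383). Control reads were a median of 16 (4 to 36) at the 9 *Jak2* sites, over 44.1 kb, and 6 at *Azin1*, 4 at *Bcor* and 5 at *Sept9*, and their part in these clusters was not tested. By the number of far sites, the share of calls was 22.6% of genes with 1 site, 24.9% with 2, 26.5% with 3 or 4 and 27.1% with 5 or more in *Irf2bp2* KD, where 22.5% of all genes tested were called, and 5.53%, 8.78%, 10.8% and 14.0% in *Cbfa2t3* KD, where 5.74% were. These shares carry no test.

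The genes were also counted by the motif of their site. In *Irf2bp2* KD 22.5% of all genes tested and 21.6% of those with a far site within 5 kb were called. Of the latter, 54 of 348 were called where the site held ETS (15.5%), 17 of 99 for CREB/ATF (17.2%) and 49 of 275 for CACGTG (17.8%), 54 of 266 for RUNX (20.3%), 54 of 206 for AP-1 (26.2%), 41 of 158 for AGATAAG (25.9%), 28 of 97 for the E-box/GATA composite (28.9%) and 15 of 43 for STAT5 (34.9%). In *Cbfa2t3* KD, with 5.74% of all genes and 5.46% of those with a far site within 5 kb called, the shares were 2.29% for ETS, 3% for CREB/ATF, 4.35% for CACGTG, 9.29% for RUNX (21 of 25 calls lower), 8.10% for AP-1, 12.03% for AGATAAG, 17.3% for the composite (13 of 17 lower) and 2.27% for STAT5 (1 of 44). The motif shares overlap, since a gene can have several sites and a site several motifs, and they carry no test.

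Motifs also met in the same sites. RUNX was in 19.9% of far sites with AP-1 and 15.7% of those without, and SP/KLF in 23.3% of those with ETS and 10.0% of those without, while AP-1 was in 7.09% of sites with ETS and 15.04% of those without. A tighter CTCF pattern, added after the data were seen, was in 123 far sites (1.83%, Wilson 95% interval 1.54 to 2.18), against 0.104% of flanks, a ratio of 17.6, in 1.09% of close, 0.110% of shared and 0.227% of ETO2-only sites (far against close, odds ratio 1.69, unadjusted Fisher's exact p = 0.0221). From the weakest to the strongest of the 4 groups by fold it was in 2.24%, 2.09%, 1.61% and 1.37% of far sites.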
